A study of Rattus norvegicus with 63 samples.

Results

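Kidneys of rats killed 2 h after an injection of methylprednisolone were compared with kidneys of untreated rats killed at 0 h, over the probe sets of the main array type. The 2 h group held 3 libraries and the 0 h group 4, out of 63 samples in the series, and both groups were chosen by their titles alone. The series followed total RNA of rat kidney on Affymetrix expression arrays through 16 times from 0.25 to 72 h after the injection. On these arrays a probe set is a group of short probes for one transcript, and its value, called the signal here, is the intensity on a linear scale that the authors deposited. The labels name the injected agent, a synthetic glucocorticoid, but give no dose, strain, sex, age or hour of day. Untreated rats were labelled at 0 h only, so the injection, the handling and the hours that passed cannot be told apart. The labels do not state that the numbered samples came from separate animals. The p-values therefore measure the spread between numbered samples, estimated over all times of the series together and not from the 2 h and 0 h libraries alone. That spread may be technical.

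A glucocorticoid enters the cell and binds the glucocorticoid receptor, which heat shock protein chaperones hold ready in the cytoplasm. The bound receptor moves to the nucleus, where it raises the transcription of some genes through DNA response elements and lowers that of others. Among the induced genes are inhibitors of NF-kappaB and of kinase signalling, clock genes and enzymes of amino acid and lipid metabolism, and in the kidney also the kinase gene Sgk1, which acts on sodium transport.

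Differences below are 2 h minus 0 h on the scale log2(signal + 7.632), each followed after ± by its standard error, and p-values adjusted by limma cover the 9520 probe sets tested (17 times in 1 fit, 52 libraries). A probe set passed the test at an adjusted p under 0.05, and "rose" and "fell" are used only for those that passed. In whole-kidney RNA, fewer cells of a type and less RNA per cell cannot be told apart. The median array signal lay between 65.63 and 83.33 over the 53 arrays of the main type. Kidney markers were present in all 7 libraries. The summed signal of 19 proximal tubule markers was 41923, 39682 and 44196 at 2 h, against 48813, 42344, 43234 and 42808 at 0 h. Umod, the uromodulin gene of the thick ascending limb, had signals of 3135, 3991 and 2732 at 2 h, against 3343, 3134, 3046 and 2933 at 0 h. None of 7 tested housekeeping genes passed in limma (0 at an unadjusted p under 0.05), and their median difference was 0.023.

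One library at 2 h stood apart from the others. Replicate 2 correlated with replicates 1 and 3 across tested probe sets with r = 0.947 and 0.933, whereas replicates 1 and 3 correlated with r = 0.968. Its title also carries the letter b, where those of the 6 other libraries carry the letter a, and the labels do not say what the letters mean. In replicate 2, 79 probe sets lay over 1 log2 unit above the mean of the other 2 h libraries and 154 lay that far below it, against 46 and 101 for replicate 3 and 43 and 21 for replicate 1.

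The albumin gene Alb, 1 of the genes furthest above in replicate 2, had signals of 55.6, 793 and 34.4 in 2 h replicates 1, 2 and 3, against 51.0, 29.5, 38.1 and 30.2 at 0 h. Hpx, which encodes the haem-binding plasma protein hemopexin, had 34.7, 406 and 20.6 at 2 h, against 27.3, 32.9, 34.2 and 22.9 at 0 h. In both genes replicate 2 alone was high, and the other 2 h libraries lay in or close to the untreated range. The rule for this library took 10 probe sets, of which the others represented Alb again, Car3 with 2 probe sets (a carbonic anhydrase), Rup2, Psca, Fabp4 (the fatty acid binding protein of adipocytes), Thrsp (a lipogenic regulator) and Crp (C-reactive protein). Each was highest in replicate 2, between 77.1 and 793. Ucp1, the uncoupling protein of brown fat, had signals of 49.0, 323 and 27.5 at 2 h, against 6.31, 20.6, 8.77 and 24.6 at 0 h.

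Of 17 hepatocyte markers with a probe set, 11 were higher in replicate 2 than in the 6 other libraries, and the summed signal of the list was 3932, 5531 and 3700.2 at 2 h, against 3129 to 3600.5 at 0 h. Not every defining hepatocyte marker was high there: Apoa1, Apoa2 and Tat had signals of 14.6, 10.9 and 1.95 in replicate 2. Of 6 adipose markers, 5 were highest in replicate 2 of the 7 libraries, and their sum was 571, 1369 and 606 at 2 h, against 256 to 312 at 0 h, while the leptin gene Lep stood at 3.94 in replicate 2. Of 3 erythroid markers with a probe set, 2 were highest in replicate 2. Among them was the beta globin gene Hbb, at 451, 2034 and 619 at 2 h, against 1144, 1127, 928 and 1046 at 0 h. One tested hepatocyte marker, Apoh, passed against 0 h with all libraries (1.13, adjusted p = 0.0314) and did not without replicate 2 (0.84, adjusted p = 0.234). The share of all probe sets that were highest in replicate 2 of the 7 libraries was not counted, so nothing further is read from these marker counts. The part of liver, fat or blood cells in other differences was not tested, and results that rest on replicate 2 are given with and without it.

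The second array type, whose samples carry the same times and numbers, showed a like pattern in its sample number 2 at 2 h, though not in every probe set. The letters differ there: the title of this sample carries the letter a, and those of the other 2 h samples carry the letter b. Of 4 Alb probe sets there, 3 were high in that sample and 1 was not, and the one with the widest gap had signals of 2.30, 299 and 3.27 at 2 h, against 1.99 to 2.89 at 0 h. Ucp1 had 62.7, 576 and 13.2 at 2 h, against 6.38 to 14.3 at 0 h. Hpx, Car3 and Fabp4 were also highest in that sample. Crp differed between its probe sets. Those with 373, 160 and 232 and with 251, 116 and 151 at 2 h were lowest in sample number 2, and that with 27.3, 44.4 and 16.3 was highest there. Signals of the 2 array types were scaled separately and are not compared with each other.

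**Figure D1:**
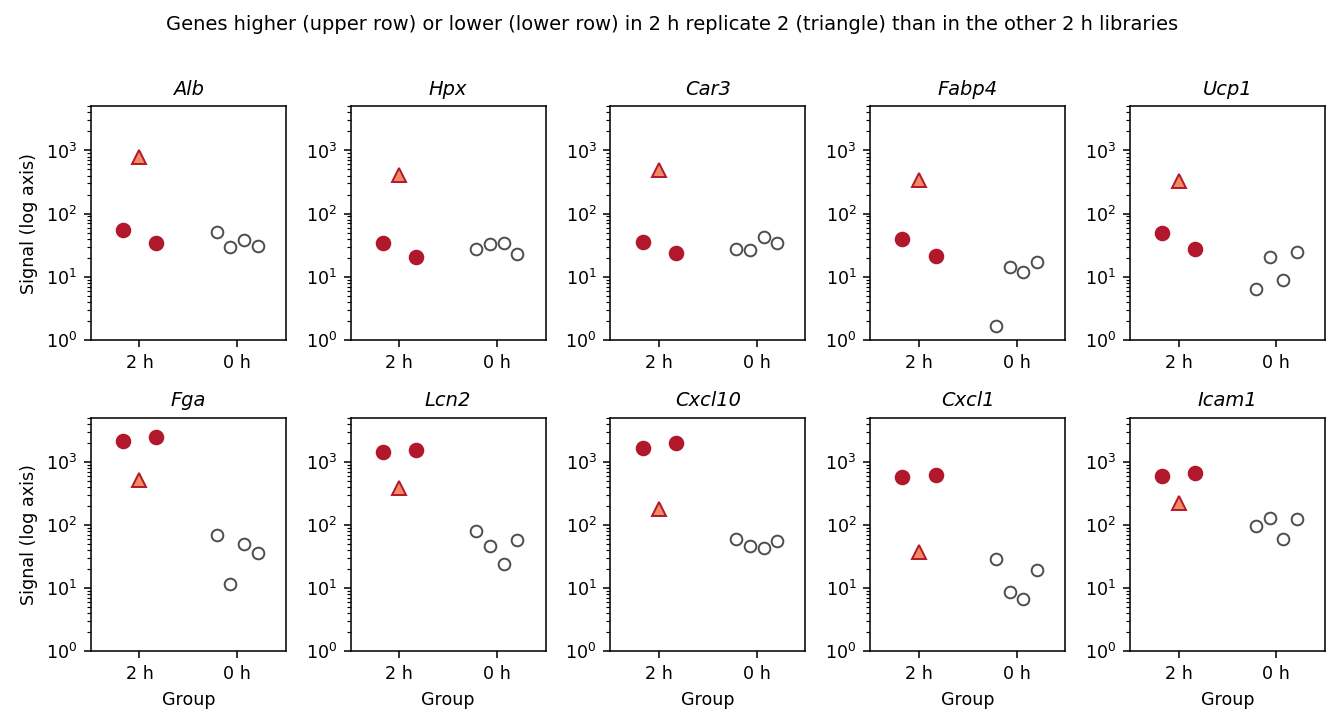
Signal of 10 genes on a log axis in each library, with the 3 libraries at 2 h on the left of each panel (triangle, replicate 2; filled circles, replicates 1 and 3) and the 4 untreated libraries at 0 h on the right (open circles). In the upper row replicate 2 alone is high (Alb 793, against 55.6 and 34.4 in the other 2 h libraries); in the lower row it lies below them (Cxcl10 181, against 1659 and 1982).

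At 2 h, 248 probe sets from 194 genes were higher and 144 from 117 genes were lower than at 0 h. These are 2.61% and 1.51% of the probe sets tested, and 1507 had an unadjusted p under 0.05. The increases were the larger changes: 152 probe sets rose by over 1 log2 unit and 35 fell by as much, and beyond 2 log2 units there were 43 and 4. The filter on dim values used the mean level over the libraries of all times. A probe set dim at 0 h could thus be tested through its later libraries, and nothing further is read from the unequal sizes. The libraries of the 2 groups did not overlap in 380 of the 392 called probe sets, against 19.1% of all probe sets tested, and since both counts use the same signals nothing further is read from this. The 14 largest increases and 14 largest decreases named below were chosen among probe sets without overlap. That their groups lie apart was thus fixed by the choice. No gene with several probe sets was called in both directions. Without 2 h replicate 2 the counts were 203 higher and 95 lower, of which 179 and 82 were among the original calls, and the sign was kept by 246 of 246 and 144 of 144 probe sets tested again. Leaving out replicate 1 or 3 in its place removed more calls, with 143 or 148 higher and 59 or 62 lower, and the reason was not tested. Leaving out 0 h replicate 3 or 4 left 73 or 87 lower probe sets. Within the 248 increases, replicate 2 was the lowest of the 2 h libraries in 118 and the highest in 86, against 34.93% lowest and 40.21% highest over all probe sets tested. For single genes, a call is said below to be lost without a library where leaving out that library alone took the adjusted p to 0.05 or above. Of 78 genes that rose or fell and were followed through these repeats, 40 kept the call whichever of the 7 libraries was left out. Counts for gene lists stand beside the 2.61% higher and 1.51% lower, and list medians beside -0.047, over all probe sets tested. The filter bears on these counts too. Spsb1, Rasd1, S100a9, Cebpb and Nfkbia had mean log2 levels of 4.09, 4.39, 4.27, 5.64 and 5.80 at 0 h, under the filter level of 5.906. Such members were tested only through libraries after the injection. Nothing further is therefore read from lists in which more genes rose than fell.

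Genes known from other work to be induced by glucocorticoids made up a list of 32, of which 30 had a probe set and 27 passed the filter on dim values. Of these 27, 20 rose and none fell (0 lower at an unadjusted p under 0.05), and the median difference was 1.785, against -0.047 over all probe sets tested. All 27 differences were positive, and without replicate 2, which Klf15, Pdk4 and Angptl4 needed for their call, 17 passed. The list was drawn up with earlier results of these data known, so its count describes the group and is not independent evidence.

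The 7 that did not pass were Cdkn1c, Glul, Scnn1a, Nfil3, Irs2, Tgfb1i1 and Anxa1. Fkbp5, a cochaperone that lowers the hormone affinity of the receptor, had signals of 301, 379.9 and 303 at 2 h, against 49.0, 59.8, 69.3 and 39.5 at 0 h. All 3 treated libraries lay far above all 4 untreated ones, and the rise of 2.45 ± 0.22 (5.47-fold, adjusted p = 2.28e-10) hardly moved without replicate 2 (2.35). Tsc22d3, also called GILZ, a leucine zipper protein that restrains NF-kappaB and AP-1, had 1217, 1301 and 1176 at 2 h, against 297, 318, 205 and 347 at 0 h. Its rise was 2.07 ± 0.20 (adjusted p = 5.32e-10). The receptor gene itself moved the other way. Nr3c1 had 127, 124 and 112 at 2 h, against 210.5, 195, 222 and 204 at 0 h, with no overlap between the groups. It fell by 0.74 on the log2 scale (standard error 0.14, adjusted p = 0.000467, adjusted p = 0.0029 without replicate 2). Of 3 Nr3c1 probe sets on the second array type, 2 were lower in every 2 h sample than in every 0 h sample. One of these had 10.3, 1.23 and 3.61 at 2 h, against 43.9, 34.8, 50.7 and 36.2 at 0 h, and the third, with 3.13, 6.44 and 5.43 at 2 h, against 4.30, 4.68, 3.78 and 3.80 at 0 h, overlapped.

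Of 19 listed genes for corticosteroid receptors, their chaperones and cofactors 15 were tested, among which Fkbp5 and Dnajb1 rose while Nr3c1 and Hsd11b2 fell. Dnajb1, a heat shock cochaperone, rose by 0.70 ± 0.17 (adjusted p = 0.0117), a call lost without 0 h replicate 3 (adjusted p = 0.0637) and without 2 h replicate 1 (adjusted p = 0.0833) or 3 (adjusted p = 0.085). The product of Hsd11b2 inactivates natural corticosteroids in the collecting duct. Its signals were 527, 384 and 614 at 2 h, against 908, 812, 882 and 670.1 at 0 h, a fall of 0.69 (adjusted p = 0.0228) that became 0.51 without replicate 2 (adjusted p = 0.211) and was also lost without 2 h replicate 1 or 0 h replicate 1 or 3. The mineralocorticoid receptor gene Nr3c2 had a difference of -0.56 ± 0.24 (adjusted p = 0.207) and the Hsp90 gene Hsp90ab1 one of 0.38 ± 0.15 (adjusted p = 0.186), and neither passed.

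**Figure D2:**
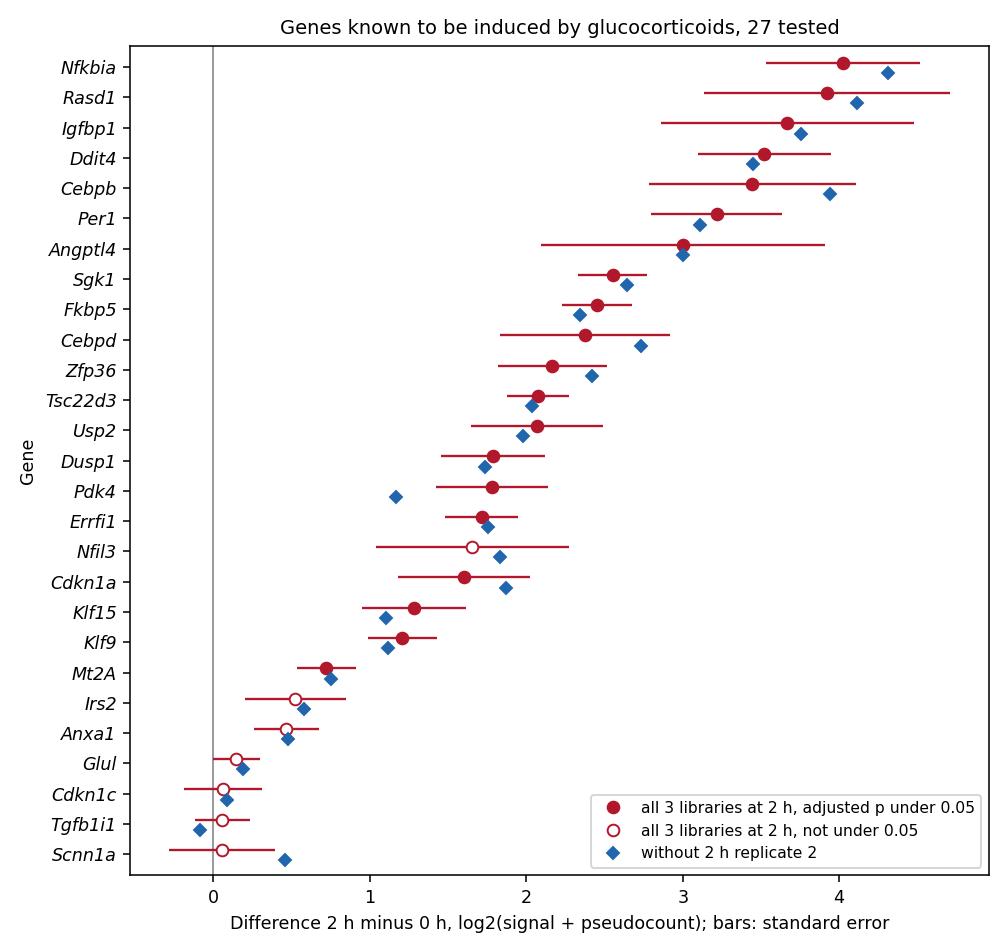
Difference 2 h minus 0 h on the log2(signal + pseudocount) scale for the 27 tested genes known to be induced by glucocorticoids (circles with standard error; filled, adjusted p under 0.05) and the same difference without 2 h replicate 2 (diamonds). All 27 circles lie above 0, 20 of them filled, and the diamond of Pdk4 lies furthest below its circle (1.17 against 1.78).

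Inhibitors of inflammatory and kinase signalling rose as well, 7 of 17 tested (28 listed) with none lower (1 lower at an unadjusted p under 0.05), and the median was 0.497. Nfkbia, the inhibitor that keeps NF-kappaB in the cytoplasm, had signals of 1127, 599.9 and 1071 at 2 h, against 35.7, 64.5, 31.7 and 70.1 at 0 h. It rose by 4.03 ± 0.49 (16.3-fold, adjusted p = 2.65e-07), and its lowest treated library was still well above the highest untreated one. Zfp36, which destabilises cytokine mRNAs, had 1018, 586 and 966 at 2 h, against 148, 218, 165 and 195 at 0 h, and rose by 2.17 ± 0.35. Dusp1, a phosphatase that switches off MAP kinases, rose by 1.79 ± 0.33 with 425, 501 and 481 at 2 h, against 99.5, 173, 124 and 134 at 0 h. For Dusp1 the 3 treated libraries were close together, while for Nfkbia and Zfp36 replicate 2 was the lowest of them. Errfi1, an inhibitor of the EGF receptor, rose by 1.72, Tnip1, a partner of the NF-kappaB brake A20, by 0.73, and Rgs2, a brake on G protein signalling, by 0.76 (adjusted p = 0.0696 without replicate 2, and lost in 5 of 7 cases when 1 library was left out, with adjusted p up to 0.155). Socs3 did not pass, at 0.56 ± 0.39 (adjusted p = 0.54).

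Several genes of the list of insulin, IGF and growth signalling had large increases. Spsb1, which encodes a SOCS box protein, had signals of 312, 328 and 278 at 2 h, against 7.77, 21.1, 6.56 and 5.92 at 0 h. The treated libraries were nearly equal and the untreated ones near the lower end of the signal range, so the size of the rise, 4.20 ± 0.52 (adjusted p = 3.69e-07), depends on the pseudocount (3.05 with 4 times the pseudocount). Rasd1, a small GTPase first found as a dexamethasone-induced gene, had 275, 236 and 460.3 at 2 h, against 27.4, 5.06, 9.94 and 17.2 at 0 h, and rose by 3.92 ± 0.79 (2.94 with 4 times the pseudocount). Ddit4, an inhibitor of the growth kinase mTORC1, had 864, 956 and 780.3 at 2 h, against 61.6, 77.7, 49.3 and 90.6 at 0 h. Its rise of 3.52 ± 0.42 (11.5-fold, adjusted p = 2.14e-07) was alike in the 3 libraries. Igfbp1, a secreted binder of insulin-like growth factors, had 3341, 3213 and 4424 at 2 h, against 348, 254, 327 and 205 at 0 h, a rise of 3.67 ± 0.81 (adjusted p = 0.00372). Ccn2, the connective tissue growth factor gene, had 3125, 3332 and 3257 at 2 h, against 235, 401, 382 and 500.2 at 0 h. Its rise of 3.12 ± 0.26 had an adjusted p of 6.28e-11, and the treated libraries differed little from each other.

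Over the whole of that list, 6 of 23 tested genes rose and 2 fell (33 listed, median 0.121). The 6 were Spsb1, Rasd1, Ddit4, Igfbp1, Ccn2 and Cdkn1a, a cell cycle inhibitor at 1.60 ± 0.42 whose call was lost without 0 h replicate 3 or 2 h replicate 1 or 3, where the adjusted p reached 0.118. The 2 that fell were also genes of the IGF system. Igfbp5 had 879, 937 and 842 at 2 h, against 1326, 1495, 1477 and 1501 at 0 h, and fell by 0.71 (adjusted p = 0.0106), which did not pass without 2 h replicate 1 or 3, where the adjusted p reached 0.0646. Igf2r, the receptor that clears IGF2 and sorts lysosomal enzymes, had 556, 334 and 791 at 2 h, against 1122, 1404, 1366 and 1868 at 0 h on the probe set with the larger fall. It fell by 1.41 (adjusted p = 0.00125) and by 1.16 on its other probe set, and without replicate 2 by 1.09 and 1.01 (adjusted p = 0.0383 and 0.0611). On the second array type its groups overlapped, with 438, 354 and 545 at 2 h, against 556, 336, 688 and 962 at 0 h.

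Among 25 tested early transcription factors and stress genes (39 listed, 12 below the filter) 7 rose and none fell (0 lower at an unadjusted p under 0.05), with a median of 0.836. Cebpb, a factor of inflammation and gluconeogenesis, had signals of 738, 263 and 781 at 2 h, against 11.8, 61.3, 50.6 and 71.0 at 0 h. Replicate 2 was the lowest treated library but lay above every untreated one, and the rise was 3.44 ± 0.66 (3.94 without it). Its relative Cebpd had 262, 124 and 255 at 2 h, against 6.88, 18.6, 8.93 and 6.29 at 0 h, and rose by 3.61 ± 0.71 (2.54 with 4 times the pseudocount), with 2.38 on its other tested probe set (adjusted p = 0.0565 without 2 h replicate 3). Gadd45b, a stress sensor, rose by 3.27 ± 0.55 (2.45 with 4 times the pseudocount), Klf9 by 1.21 and Klf15 by 1.28, both Krueppel-like targets of the receptor, Atf4 by 1.00 and Gadd45a by 1.04. Without replicate 2 Klf15 did not pass (adjusted p = 0.113), nor without 2 h replicate 1 or 0 h replicate 1. Atf4 lost its call without 2 h replicate 1 or 3 with an adjusted p of up to 0.119, and Gadd45a without either of these or 0 h replicate 2, 3 or 4, with one of up to 0.201. Of the immediate early genes, Egr1, Jun and Klf6 did not pass. Egr1 had 353, 127 and 378 at 2 h, against 105, 87.5, 112 and 70.5 at 0 h (adjusted p = 0.272), so replicates 1 and 3 were high and replicate 2 was near the untreated level. Jun and Klf6 had differences of 1.24 ± 0.42 and 1.42 ± 0.48 (adjusted p = 0.0892 and 0.0895), and Fos was too dim to be tested.

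In the clock list 2 of 13 tested genes (19 listed) rose and 1 fell, against 2.61% and 1.51% of all probe sets tested, and the median of the list was -0.038, against -0.047. Per1, a clock gene with direct receptor input, had signals of 183, 274 and 258 at 2 h, against 12.9, 44.7, 13.2 and 13.1 at 0 h, and rose by 3.22 ± 0.42 (adjusted p = 9.32e-07; 2.41 with 4 times the pseudocount). Usp2, a rhythmic deubiquitinase, had 612, 667 and 494 at 2 h, against 129, 159, 120.1 and 130.1 at 0 h, and rose by 2.07 ± 0.42. Both were separated from the untreated range in every library. Clock fell by 0.57 (adjusted p = 0.0305, and adjusted p = 0.0606 without replicate 2), and leaving out 1 library took the call away in 5 of 7 cases (adjusted p up to 0.153). Among the 10 that did not pass, Per2 stood at -0.04 ± 0.25 and Dbp, a clock output factor, at -1.17 ± 0.51 (adjusted p = 0.232).

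**Figure D3:**
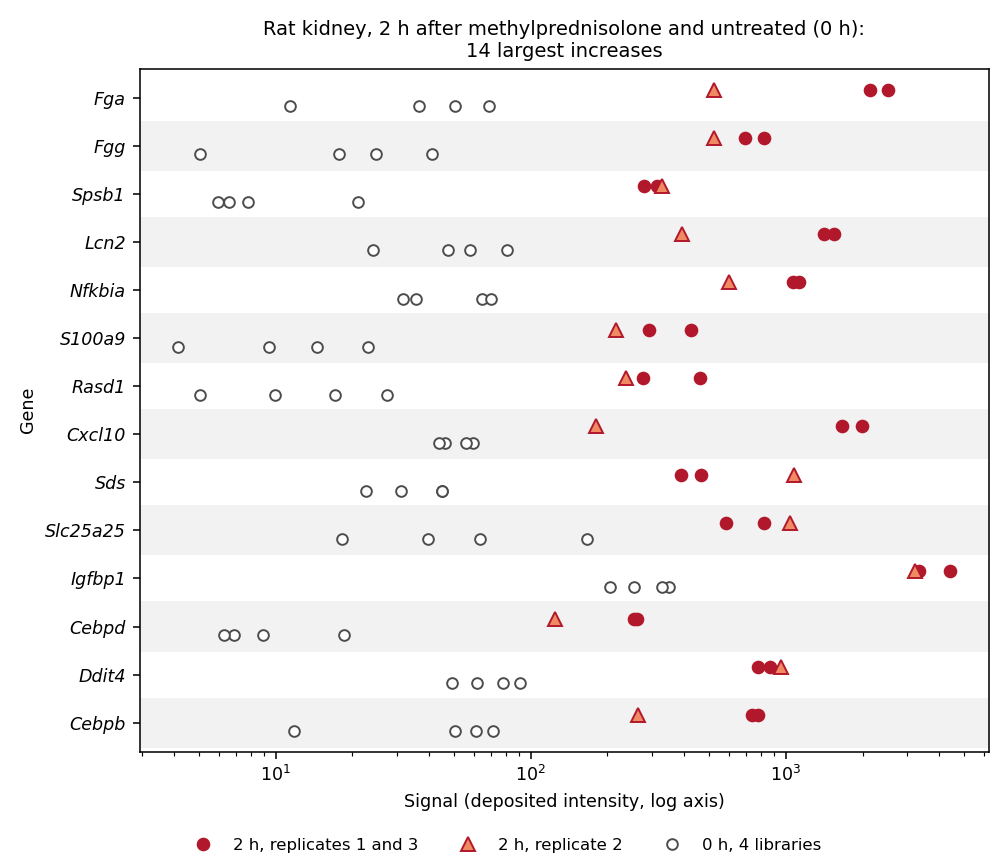
Signal on a log axis of the 14 genes with the largest increases at 2 h over 0 h, in order of the difference. For each gene the 3 libraries at 2 h are drawn above (circles, replicates 1 and 3; triangle, replicate 2) and the 4 untreated libraries below (open circles). The genes were taken from those whose groups do not overlap, and replicate 2 is the lowest of the 2 h libraries in 10 of the 14 genes and the highest in 4.

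Of 30 tested genes of amino acid and glucose metabolism (36 listed) 5 rose and 1, Slc5a2, fell, and the median was 0.045. Sds, whose product turns serine into pyruvate, had signals of 467, 1075 and 388 at 2 h, against 44.9, 22.5, 44.7 and 30.9 at 0 h. Here replicate 2 was the highest, and the rise of 3.80 ± 0.45 (adjusted p = 1.61e-07) was 3.36 without it. Pdk4, a kinase that shuts off pyruvate dehydrogenase, had 179, 645 and 171 at 2 h, against 122, 58.8, 84.3 and 47.4 at 0 h. Its rise of 1.78 ± 0.36 (adjusted p = 0.00134) rested on replicate 2, and without it was 1.17 (adjusted p = 0.0629). Slc38a2, an amino acid transporter, rose by 1.87 ± 0.26 with 501, 594 and 654 at 2 h, against 121, 179, 160.1 and 157 at 0 h. Odc1, the first enzyme of polyamine synthesis, and Arg2, a mitochondrial arginase, rose by 1.04 and 0.88, and neither passed without replicate 2 (adjusted p = 0.148 and 0.0522). Odc1 also lost its call without 2 h replicate 1 or 0 h replicate 1, 3 or 4. The gluconeogenic gene Pck1 had 3060.0, 3520.4 and 3396 at 2 h, against 3442, 3355, 2873 and 3510.3 at 0 h. Its groups overlapped and its difference was 0.02 ± 0.20.

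Regulators of lipid use moved in both directions, 5 up and 3 down of 15 tested (24 listed, median 0.186). Pnpla2, the main triglyceride lipase, had signals of 421, 518 and 437 at 2 h, against 167, 227, 281 and 204 at 0 h, and rose by 1.05 ± 0.15 (adjusted p = 1.16e-05). G0s2, the inhibitor of that lipase, had 84.1, 136 and 83.2 at 2 h, against 561, 601, 545 and 575 at 0 h. G0s2 fell by 2.44, the largest fall in the comparison (standard error 0.70, adjusted p = 0.0363), and the call was lost whichever library was left out (adjusted p = 0.0578 without replicate 2 and up to 0.143). On the second array type G0s2 had 48.9, 106 and 61.3 at 2 h, against 300.5, 360.1, 375 and 293 at 0 h. Pdp2, a phosphatase that turns pyruvate dehydrogenase on, had 99.1, 84.7 and 98.5 at 2 h, against 405, 309.6, 285 and 262 at 0 h, and fell by 1.65 (adjusted p = 7.32e-05). For both falling genes the 2 groups were far apart. Slc25a25, which moves adenine nucleotides into mitochondria, rose by 3.68 ± 0.60 with 584, 1043 and 821 at 2 h, against 167, 63.3, 18.2 and 39.7 at 0 h. Insig1, a brake on sterol synthesis, rose by 1.52 and did not pass without 2 h replicate 1 or 3, where the adjusted p reached 0.0651. Lpl, the lipase of circulating triglycerides, rose by 1.31 (adjusted p = 0.0494). Its inhibitor Angptl4 had 389, 462 and 547 at 2 h, against 171, 30.3, 42.2 and 27.5 at 0 h, and rose too (adjusted p = 0.0488), and neither gene passed without replicate 2 (adjusted p = 0.146 for Lpl and 0.118 for Angptl4). Leaving out any 1 library took away the call of Lpl, and all but 0 h replicate 1 that of Angptl4. The transporter gene Slc16a6 fell by 0.82 (adjusted p = 0.0651 without replicate 2), a call lost in 6 of 7 cases when 1 library was left out.

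In sodium and potassium handling 1 of 18 tested genes (23 listed) rose and 1 fell, against 2.61% and 1.51% of all probe sets tested, and both were kinases of the same family. Sgk1 had signals of 3019, 2587 and 3217 at 2 h, against 473, 429, 403 and 720.5 at 0 h, and rose by 2.55 ± 0.22 (5.86-fold, adjusted p = 8.12e-11). Sgk2 had 55.5, 55.8 and 88.2 at 2 h, against 318, 277, 323 and 355 at 0 h, and fell by 2.16 (4.47-fold lower, standard error 0.38, adjusted p = 0.000232). The groups of Sgk1 did not overlap, and Sgk2 had been chosen among genes whose groups do not overlap. Both passed without replicate 2 (adjusted p = 4.63e-09 for Sgk1 and 0.00329 for Sgk2). The channel subunits that Sgk1 acts on did not pass: Scnn1a stood at 0.06 ± 0.34, Scnn1b at -0.16 ± 0.13 and Scnn1g at -0.19 ± 0.20. In Scnn1a and Scnn1g replicate 2 was the lowest treated library, with 228, 91.7 and 218 and with 175, 84.4 and 192 at 2 h.

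The 2 largest differences were those of fibrinogen genes, which also had the widest standard errors of the 14 genes with the largest increases. Fga, which encodes the alpha chain of fibrinogen, had signals of 2139, 523 and 2509 at 2 h, against 68.5, 11.4, 50.4 and 36.6 at 0 h. All 3 treated libraries were above the untreated ones, with replicate 2 the lowest. Fga rose by 5.02 ± 1.37 (32.3-fold, adjusted p = 0.0248), with a second probe set at 3.59 ± 1.15 that did not pass (adjusted p = 0.0703). The Fga call was lost under 6 of 23 alternative settings, among them leaving out 2 h replicate 1 (adjusted p = 0.116) or 3 (adjusted p = 0.133) and 0 h replicate 2 (adjusted p = 0.0812) or 4 (adjusted p = 0.052), and the difference was 4.40 with 4 times the pseudocount. Fgg, the gamma chain, had 693, 524 and 823 at 2 h, against 40.9, 24.8, 5.04 and 17.7 at 0 h, and rose by 4.66 ± 1.41 (adjusted p = 0.0477, and adjusted p = 0.0971 without replicate 2), a call that 16 of 22 alternative settings did not make, leaving out any 1 of the 7 libraries among them, and the difference was 3.78 with 4 times the pseudocount. Lcn2, a siderophore-binding protein, had 1410.0, 390.3 and 1540.0 at 2 h, against 80.5, 47.2, 24.2 and 58.0 at 0 h, and rose by 4.08 ± 0.98 (adjusted p = 0.0084). Its call was lost without 2 h replicate 1 (adjusted p = 0.065) or 3 (adjusted p = 0.0689). The complement gene C3 rose by 2.46 ± 0.66 (adjusted p = 0.0227, and adjusted p = 0.0589 without replicate 2, and lost as well without 2 h replicate 1 or 3 or 0 h replicate 2) and the ceruloplasmin gene Cp by 1.14 ± 0.22. These were the 5 acute-phase genes that could be tested, and 10 others were below the filter, so the 5 are not the whole list. Fga, Fgg and Lcn2 had mean log2 levels of 5.46, 4.74 and 5.82 at 0 h, under the filter level of 5.906. They were therefore tested only through libraries after the injection, and the rise of all 5 is not read as a result about the list. Among the dim ones Serpina3n, a protease inhibitor, had 164, 189 and 163 at 2 h, against 33.4, 25.1, 27.7 and 24.6 at 0 h, whereas Hp (haptoglobin) had 114, 533 and 91.1 at 2 h, with replicate 2 the highest, against 57.2, 20.7, 41.4 and 46.9 at 0 h.

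The core of the glucocorticoid response element, ACANNNTGT, which reads the same on both strands, was looked up in RefSeq promoters of 300 bases, 250 before and 50 after the start of each gene (assembly GRCr8). Of the genes that rose 7 of 160 held it (4.38%) and of those that fell 3 of 98 (3.06%), against 3.72% of the 5966 promoters of tested genes and 6.6% of all 27457 promoters in the table. Both shares of the core lay near that of the tested genes. A longer form of the element was counted too. It was held by 2 of 160 promoters of genes that rose (1.25%) and 0 of 98 of those that fell. The tested genes had it in 17 of 5966 promoters (0.285%), and the whole table in 116 of 27457 (0.422%). The higher share among genes that rose rests on 2 promoters and was not tested. Of the 28 genes with the largest differences 21 had a promoter in the table, and 3 of these held the core. The promoters of Fga and Lcn2, which rose, and of Esm1, an endothelial gene that fell, are printed 5′ to 3′ on the strand of the gene with the core in capitals, as examples of what was counted. They lie at chr2:170671919-170672218 (plus strand), chr3:36081731-36082030 (minus strand) and chr2:46609003-46609302 (plus strand). The core begins at base -95 from the start site in Fga, at -131 in Lcn2 and at 31 in Esm1. A match is a description of these letters and not a binding site.
Fga: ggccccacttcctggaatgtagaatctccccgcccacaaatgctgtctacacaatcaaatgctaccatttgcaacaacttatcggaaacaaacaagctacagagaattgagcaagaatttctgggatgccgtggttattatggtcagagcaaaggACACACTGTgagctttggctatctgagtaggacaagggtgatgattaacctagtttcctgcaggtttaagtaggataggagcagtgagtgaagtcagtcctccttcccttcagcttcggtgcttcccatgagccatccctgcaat
Lcn2: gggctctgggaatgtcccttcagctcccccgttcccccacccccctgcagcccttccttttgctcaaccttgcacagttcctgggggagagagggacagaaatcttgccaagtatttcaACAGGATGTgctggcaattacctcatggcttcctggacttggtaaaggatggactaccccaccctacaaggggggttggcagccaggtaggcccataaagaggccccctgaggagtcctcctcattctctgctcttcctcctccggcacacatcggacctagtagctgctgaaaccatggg
Esm1: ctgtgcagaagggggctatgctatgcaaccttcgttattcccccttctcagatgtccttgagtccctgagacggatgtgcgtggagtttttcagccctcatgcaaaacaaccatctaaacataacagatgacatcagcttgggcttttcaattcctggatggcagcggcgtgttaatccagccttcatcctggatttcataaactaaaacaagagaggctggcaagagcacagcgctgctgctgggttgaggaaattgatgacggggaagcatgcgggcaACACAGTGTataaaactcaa

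Of 18 tested cytokine, chemokine and adhesion genes (25 listed), 2 rose with all libraries and 4 without replicate 2, none fell (0 lower at an unadjusted p under 0.05), and the median was 0.939. The summed signal of the 24 measured genes was 7164, 3294 and 7876 at 2 h, against 2354, 2507, 2544 and 2645 at 0 h, so replicate 2 stood nearer to the untreated libraries than replicates 1 and 3 did. Cxcl10, a chemokine for T cells, had signals of 1659, 181 and 1982 at 2 h, against 59.3, 46.0, 43.9 and 55.5 at 0 h. Its rise of 3.87 ± 0.92 (adjusted p = 0.00749) became 4.96 without replicate 2 (adjusted p = 0.00171), while the call was lost without replicate 1 (3.39, adjusted p = 0.0783) or 3 (3.26, adjusted p = 0.0934). Vcam1, an adhesion molecule for leukocytes, differed from this pattern, with 647, 609.8 and 618 at 2 h, against 124, 116, 83.1 and 174 at 0 h, and rose by 2.30 ± 0.40 in all 3 libraries alike. The neutrophil chemokine gene Cxcl1 had 585, 37.4 and 628 at 2 h, against 28.6, 8.73, 6.76 and 19.3 at 0 h, and did not pass (3.55 ± 1.49, adjusted p = 0.206). Icam1 had 605, 224 and 654 at 2 h, against 97.3, 129, 60.5 and 123 at 0 h (adjusted p = 0.0933). Without replicate 2, Ccl20 and Ccl3 were the 2 further genes to pass, at 2.48 and 1.55 (adjusted p = 0.0158 and 0.0423).

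The second array type carried the same split between its libraries at 2 h. Fga had signals of 2311, 199 and 3022 at 2 h, against 168, 49.4, 74.6 and 71.4 at 0 h. Cxcl10 had 1470, 112 and 1768 at 2 h, against 35.3, 30.3, 31.2 and 19.8 at 0 h. In both genes sample number 2 was the lowest treated library and still above the untreated range. Of the 28 genes with the largest differences 17 had probe sets on this type, 27 in all, and in 24 of these the groups were apart in the direction of the main type. The 3 that overlapped belonged to Cebpd, which had others that did not, Igf2r and Kdr. The 28 genes had been chosen for groups that do not overlap on the main type. The share of all probe sets of the second type with groups apart was not counted, so nothing further is read from the 24. Whether the samples of the 2 array types came from the same RNA is not stated in the labels.

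A split between libraries was also present at 1 h, where replicate 2 was the high one. Fga had 61.7, 2136 and 62.7 in 1 h replicates 1, 2 and 3, and Cxcl10 had 77.9, 3757 and 78.7. Thus 1 library at 1 h was high and 2 were low, whereas 2 libraries at 2 h were high and 1 was lower. At 4 h all 3 libraries were high for Fga (2149, 1863 and 2041) and all 3 were far below the high 2 h libraries for Cxcl10 (126, 101 and 94.96). Alb was not high in the high library at 1 h, at 28.8 in replicate 2 against 40.7 and 44.1 in the others.

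Markers of injury and of immune cells are given beside these genes. Of 15 tested tubular injury markers (17 listed) 3 rose, Lcn2, Clu and Vim, by 4.08, 1.06 and 1.05 (Clu not without replicate 2, adjusted p = 0.182, nor in 5 other of the 7 cases in which 1 library was left out, and Vim not without 0 h replicate 3 or 2 h replicate 3, with adjusted p up to 0.0762), and the injury molecule Havcr1 did not pass, with 649.6, 322 and 838 at 2 h, against 217, 59.6, 51.9 and 48.7 at 0 h (adjusted p = 0.125). Of 13 tested macrophage and neutrophil markers (18 listed) 5 rose and none fell (0 lower at an unadjusted p under 0.05), and the median was 0.454. S100a9, a calcium-binding protein of neutrophils, had signals of 292, 216 and 426 at 2 h, against 4.15, 14.6, 9.45 and 23.1 at 0 h, a rise of 4.00 ± 0.89 that was 2.95 with 4 times the pseudocount. Cd14, a lipopolysaccharide coreceptor, had 374, 269 and 407 at 2 h, against 82.0, 80.2, 74.3 and 77.9 at 0 h, and rose by 2.03 ± 0.39. The complement genes C1qa, C1qb and C1qc rose by 0.94, 1.35 and 0.78, of which C1qb alone passed without replicate 2 (adjusted p = 0.00939), and C1qa and C1qc lost their calls in 4 and 6 of 7 cases when 1 library was left out. The 8 tested markers that did not pass include defining ones: Ptprc, the pan-leukocyte antigen, stood at 0.12 ± 0.20, Csf1r at 0.03 ± 0.24 and Tyrobp at -0.01 ± 0.17. The summed signal of the 16 measured markers was 4269, 4054 and 4452 at 2 h, against 2301, 2619, 2161 and 2779.6 at 0 h. Of 4 tested lymphocyte markers none passed in limma (0 at an unadjusted p under 0.05), and the part of immune cells in the changes was not tested.

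Of 20 tested heat shock and endoplasmic reticulum genes (24 listed) 4 rose, with 11 higher at an unadjusted p under 0.05, and the median was 0.581. Herpud1, a component of the degradation machinery of the endoplasmic reticulum, had signals of 1196, 1472 and 1373 at 2 h, against 224, 333, 261 and 264 at 0 h, and rose by 2.29 ± 0.25 (adjusted p = 1.59e-08). The small heat shock gene Hspb1 rose by 1.48 ± 0.31, with Hsph1 at 0.77 and Dnajb1 at 0.70. The Hsph1 call was lost in 6 of 7 cases when 1 library was left out (adjusted p = 0.0556 without replicate 2 and up to 0.123). The main chaperone Hspa5 had 1522, 1572 and 2009.7 at 2 h, against 1019, 841, 766 and 735 at 0 h, which narrowly did not pass (1.01 ± 0.31, adjusted p = 0.0535), and Hspd1 stood at -0.02 ± 0.11.

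The decreases were smaller, and in the 14 largest replicate 2 was the lowest of the 2 h libraries in 5 and the highest in 6. Tnfaip8, a regulator of cell death and lipid signalling, had signals of 58.0, 77.0 and 62.9 at 2 h, against 261, 288, 287 and 312 at 0 h, and fell by 2.01 (4.02-fold lower, adjusted p = 3.31e-05). Meis2, a homeobox factor, had 19.8, 22.4 and 18.8 at 2 h, against 82.8, 82.2, 82.5 and 90.2 at 0 h, and fell by 1.72 (1.18 with 4 times the pseudocount). In both genes the libraries within a group were close and the groups far apart. Anks4b, a scaffold protein of the brush border, had 68.8, 79.3 and 71.5 at 2 h, against 288, 273, 261 and 223 at 0 h, and fell by 1.73. Exoc3l2 and Tmem45b fell by 1.67 and 1.58, and the Wnt receptor gene Fzd1 by 1.45. Tril, an accessory protein of Toll-like receptors, had 56.1, 68.8 and 55.9 at 2 h, against 166, 183, 139 and 265 at 0 h (2.82-fold lower, adjusted p = 0.0318, and adjusted p = 0.0627 without replicate 2), a call lost in 5 of 7 cases when 1 library was left out. Commd5 had 69.4, 5.50 and 52.6 at 2 h, against 75.0, 129, 84.1 and 115 at 0 h. Its fall of 1.43 (adjusted p = 0.00633) rested on replicate 2, and without that library was 0.64 (adjusted p = 0.247).

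**Figure D4:**
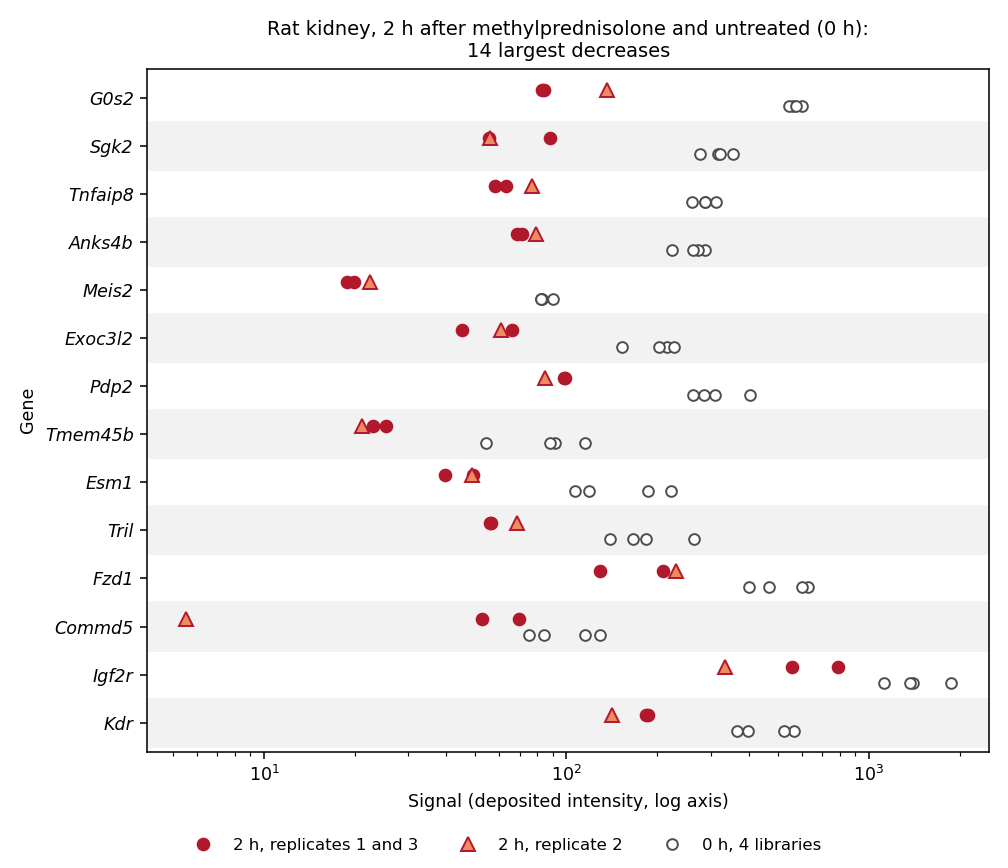
Signal on a log axis of the 14 genes with the largest decreases at 2 h below 0 h, in order of the difference, with the 3 libraries at 2 h above (triangle, replicate 2) and the 4 untreated libraries below (open circles) in each row. The genes were taken from those whose groups do not overlap, and in Commd5 the replicate 2 signal of 5.50 lies far below the other 2 h libraries.

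Of 10 tested endothelial markers (14 listed) 4 fell and 1 rose, against 1.51% lower and 2.61% higher over all probe sets tested, and the median was -0.603, against -0.047. Without replicate 2, 2 of the 4 passed, Kdr and Esm1. Kdr, the main VEGF receptor, had signals of 184, 141 and 187 at 2 h, against 368, 398, 564 and 525 at 0 h, and fell by 1.39 (2.62-fold lower, adjusted p = 0.00271). Esm1, a secreted endothelial proteoglycan, had 39.7, 48.7 and 49.0 at 2 h, against 106, 119, 186 and 221 at 0 h, and fell by 1.58 (adjusted p = 0.016). The Esm1 call was lost without 0 h replicate 3 (adjusted p = 0.0556) or 4 (adjusted p = 0.0688) and without 2 h replicate 1 (adjusted p = 0.0838) or 3 (adjusted p = 0.0532). Tie1 and Egfl7 fell by 0.80 and 0.61 and did not pass without replicate 2 (adjusted p = 0.149 and 0.118), and each call was lost in 6 of the 7 cases in which 1 library was left out. The junction gene Esam rose by 1.16 ± 0.27, with 443, 408 and 504 at 2 h, against 146, 209, 263 and 189 at 0 h (adjusted p = 0.0538 without 2 h replicate 3), while Pecam1, a general marker of these cells, stood at 0.14 ± 0.22. The summed signal of 12 endothelial markers was 1833, 2031 and 1917 at 2 h, against 2165, 2413, 2725 and 2673 at 0 h. Of 8 tested podocyte markers (10 listed) Synpo alone passed, with 2 lower at an unadjusted p under 0.05: this actin-binding gene had 227, 183 and 235 at 2 h, against 371, 401, 499.8 and 399 at 0 h, and fell by 0.93 (adjusted p = 0.000298). The podocyte sum was 1106, 896 and 1104 at 2 h, against 1167, 1442, 1567 and 1472.5 at 0 h. The part of cell numbers in these falls was not tested.

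Slc5a2, the glucose transporter of the early proximal tubule, was the 1 of 19 proximal tubule markers that passed, with 541, 458 and 867 at 2 h, against 903, 1176, 961 and 1157 at 0 h. It fell by 0.79 (adjusted p = 0.0271), and without replicate 2 by 0.60 (adjusted p = 0.213), and the call was also lost without 2 h replicate 1 or 0 h replicate 2 or 4. None of 10 tested thick limb and distal tubule markers passed in limma (3 lower at an unadjusted p under 0.05), and Hsd11b2 was the 1 of 8 tested collecting duct markers that did. Of 10 tested smooth muscle and fibroblast markers none passed (2 higher at an unadjusted p under 0.05).

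The 2 h libraries were also compared with those at 1 h and at 4 h in the same fit, whose estimate of the spread includes the libraries of all times. With the compared times alone the count was 0 against 1 h in limma (662 at an unadjusted p under 0.05) and 1 against 4 h. Against 1 h, 8 probe sets passed (0.084% of those tested; 575 at an unadjusted p under 0.05), 4 higher and 4 lower at 2 h. Foxo3, a transcription factor of stress and starvation, had signals of 724, 730.1 and 659 at 2 h, against 340.0, 344 and 405 at 1 h, a difference of 0.94 ± 0.18 (adjusted p = 0.0192). The mitochondrial glutamate carrier gene Slc25a22 had 295, 335 and 367 at 2 h, against 88.0, 95.2 and 222 at 1 h. In both genes all 2 h libraries lay above all 1 h libraries. The other higher genes were Bicdl1 and Helz, at 0.93 and 0.88, and neither passed against 0 h (adjusted p = 0.167 and 0.554). Lower than at 1 h were Tmem45b, Tnfaip8, Meis2 and Nr1h4, at -1.63, -1.54, -1.53 and -0.91. Nr1h4, the bile acid receptor, had 146, 141 and 124 at 2 h, against 266, 235 and 292 at 1 h. Without 2 h replicate 2 none of the 8 passed in limma (566 at an unadjusted p under 0.05), with differences of the same sign, such as 0.92 for Foxo3 and -0.93 for Nr1h4. The count was also 0 without 2 h replicate 1 (471), 1 without 2 h replicate 3, and 1 to 3 when a single 1 h library was left out.

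Against 4 h, 19 probe sets passed (0.2% of those tested; 1326 at an unadjusted p under 0.05), 12 higher and 7 lower at 2 h. Edn1, the vasoconstrictor endothelin, had signals of 125, 94.5 and 98.3 at 2 h, against 55.0, 45.5 and 50.1 at 4 h, and was higher at 2 h by 0.97 ± 0.20 (adjusted p = 0.0234). It was also higher at 2 h than at 0 h, by 0.81 ± 0.19 (adjusted p = 0.00599). Amph, Bpifa5, Cd83 and Egr3 were the other genes with the largest excess over 4 h, at 1.198, 1.195, 1.07 and 1.003. Unlike Edn1, none of them passed against 0 h (adjusted p = 0.129, 0.905, 0.244 and 0.205). Below their 4 h level were Eif4ebp3, a translation inhibitor, at -1.56, Csrp2 at -1.35, Ctdspl at -0.96, Pnpla2 at -0.91 and Hsd11b2 at -0.87. Of these, Eif4ebp3 and Csrp2 did not pass against 0 h (adjusted p = 0.114 and 0.536). Pnpla2 had 421, 518 and 437 at 2 h, against 789, 1057 and 775 at 4 h. All 10 of these lost their call without 4 h replicate 2, when no probe set passed in limma (586 at an unadjusted p under 0.05). The count was also 0 without 2 h replicate 1 (1044), and it was 186 without 4 h replicate 1.

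**Figure D5:**
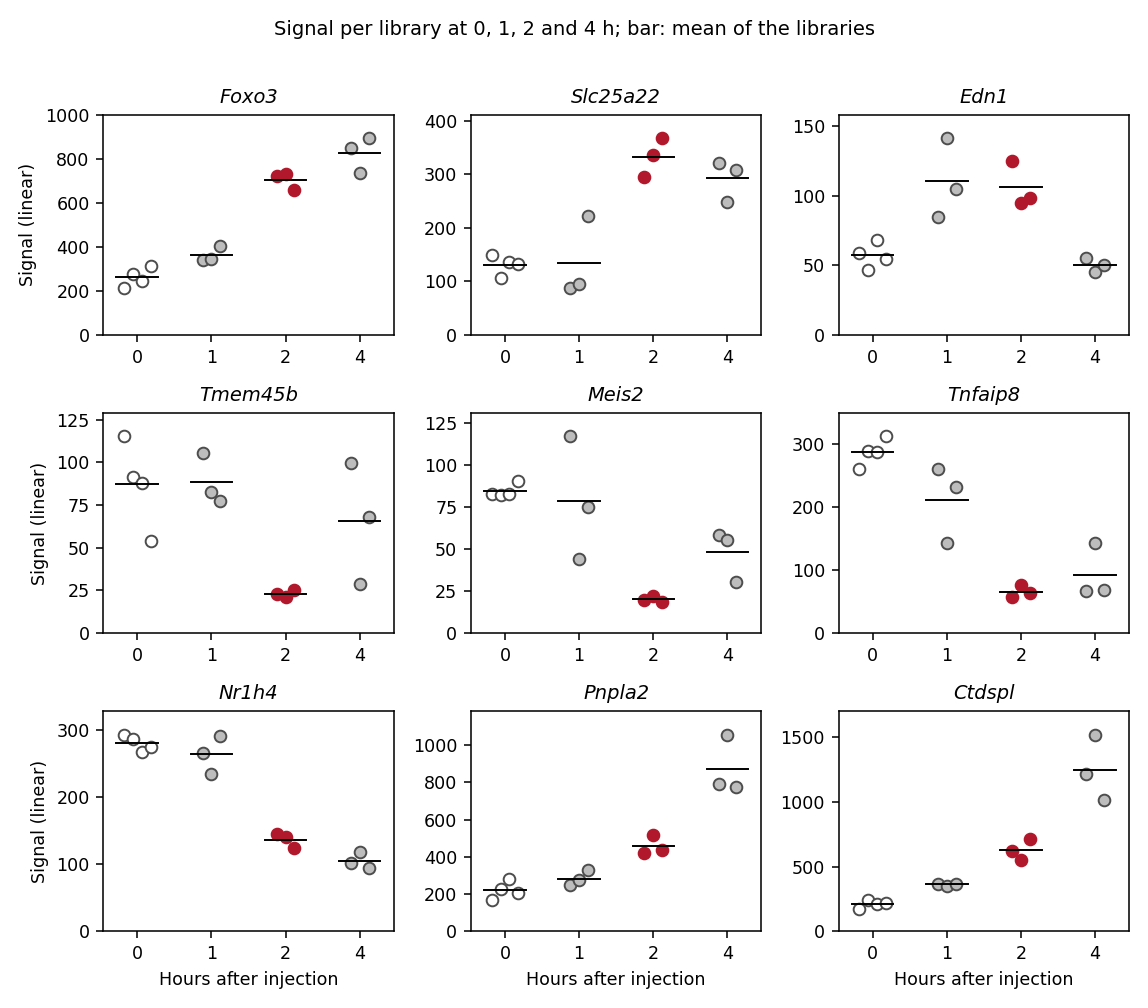
Signal on a linear axis of 9 genes named in the comparisons of 2 h with 1 h or 4 h, per library at 0, 1, 2 and 4 h (open circles, 0 h; red, 2 h; grey, 1 h and 4 h; bar, mean). At 2 h Tmem45b, Meis2, Tnfaip8 and Nr1h4 are below their 1 h libraries, Foxo3 and Slc25a22 above them, and Pnpla2 and Ctdspl lie between their 0 h and 4 h libraries.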

How the data were processed

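Total RNA of rat kidney was measured on 2 Affymetrix array types, and the main type has 53 arrays and 15923 probe sets. The deposited values are intensities on a linear scale, 1 per probe set and array, with no program for summarising the probes named in the labels or headers. The authors' intensities had been scaled before deposit: leaving out 2% of the probe sets at each end, the mean of each main array is 150.03 to 150.04. Groups were taken from the titles. The members, gene lists and comparisons were chosen with earlier results of these data known.

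Control probe sets (57) were left out, the pseudocount of 7.632 was the 10th percentile of the table, and probe sets with a mean log2 level at or above the 40th percentile (signal 52.35) were tested. This left 9520 of 15866 probe sets. A limma fit (version 3.58.1 in R 4.3.3, with a mean-variance trend) had time as its factor and 52 libraries, after the 2 arrays of 5 h replicate 1 were averaged, with 35 residual degrees of freedom. Benjamini-Hochberg adjusted p-values cover all tested probe sets, and the threshold was 0.05. The number of arrays limits the precision.

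Probe sets were named through the platform annotation and RefSeq: 12783 had 1 gene symbol, 312 several and 2771 none. Named genes are the 14 largest differences in each direction against 0 h among called probe sets whose libraries do not overlap, the 5 largest in each direction against 1 h and 4 h, the 10 probe sets furthest above the other 2 h libraries in replicate 2, and list members at their brightest probe set. Where a list member is singled out, the choice was made after its values were seen. Alternatives were quantile normalization, 2 other pseudocounts, 2 other filters, the libraries of the compared times alone, array weights, robust variance, the sample number as a block, arrays of letter a alone and leaving out each library. Deviations of same-numbered 2 h and 0 h libraries correlated at 0.014, -0.095 and 0.106, so the numbers were not taken as pairs.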

Additional observations from a re-analysis of the deposited data

Results flagged for a closer look

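Among the 28 groups of 4 untreated libraries of the genes with the largest differences, 2 held a library whose gap to the nearest of the others, over the range of the group on the log2 scale, passed Dixon's critical value. Chance gives about 1 such group in 20, so 2 of 28 is near what chance gives. Spsb1 had a signal of 21.065 in 0 h replicate 2, while the other untreated libraries had 5.92 to 7.77, and all 3 libraries at 2 h lay above it. Its gap over range passed that value only at the margin. Meis2 had a signal of 90.2371 in 0 h replicate 4, while the others had 82.2 to 82.8, with a gap over range of 0.923, and all 3 libraries at 2 h lay below.

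On the second array type, which the comparisons above do not test, sample number 2 at 2 h held signals above the untreated level. Alb stood at 298.823 there, against 1.99 to 2.89 in the 4 untreated samples, and Ucp1 at 576.108, against 6.38 to 14.3. The other 2 h samples had 2.30 and 3.27 for Alb and 62.7 and 13.2 for Ucp1.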

How the results depend on the processing

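The results named from a test were 98, with 80 against 0 h, 8 against 1 h and 10 against 4 h, and some genes were counted more than once. Over these 98 results, 1292 of 1629 values under alternative settings kept the call, 337 lost it and 0 changed sign. Against 0 h, the 248 higher and 144 lower probe sets became 376 and 239 with the libraries of the times compared alone, 693 and 768 with array weights, and 165 and 68 with arrays of letter a alone. Of the 2 h and 0 h libraries, letter a alone leaves out only 2 h replicate 2. It is therefore not a check separate from leaving out that library. Leaving out 1 library gave 143 to 209 higher and 59 to 122 lower; the higher count moved by over 1.5 times without 2 h replicate 1 (143) or 3 (148), and the lower count without 2 h replicate 1 (59), 2 (95) or 3 (62) and without 0 h replicate 3 (73) or 4 (87).

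The 8 probe sets against 1 h became 5 with the filter at the 60th percentile, 79 with array weights, 0 with the compared times alone (limma; 662 at an unadjusted p under 0.05) and 0 with letter a alone (481). Leaving out 1 library gave 0 to 3: 0 without 2 h replicate 1 (471) or 2 (566), 1 without 2 h replicate 3, and 2, 1 and 3 without 1 h replicate 1, 2 and 3. The 19 against 4 h became 8 with quantile normalization, 1 with the compared times alone, 1732 with array weights and 2 with letter a alone. Leaving out 1 library gave 0 to 186: 0 without 2 h replicate 1 (1044) or 4 h replicate 2 (586), and 186 without 4 h replicate 1. A replicate block on the numbers gave 209 higher and 103 lower probe sets, 5 against 1 h and 16 against 4 h. Under this block 23 of the 98 named results lost their call, and the labels do not say whether equal numbers pair the samples. The causes of these shifts were not tested.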
